A study of Mus musculus with 7 samples.

Results

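Serpins are a family of proteins, most of which inhibit proteases, and the mouse carries large local clusters of their genes. The members here were the probe sets, other than control probe sets, that the platform annotation assigned to exactly 1 gene with a symbol starting with Serpin. They numbered 56 of the 45101 probe sets on the array and stood for 40 of 18193 named genes, in 8 of the lettered clades into which the family is divided. Clade A had 14 genes, clade B had 18, clades F and I had 2 each, and clades C, D, G and H had 1 each. Serpina4-ps1 is a pseudogene.

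The arrays were 2 of dissected mouse basal cell carcinoma, a skin tumour that depends on Hedgehog signalling, 2 of normal epidermis of newborn (P0) mice, and 3 of PDKC1, a mouse basal cell carcinoma line. PDKC1 cells were taken at 0 h, 6 h and 10 h of exposure to cyclopamine, which inhibits Smoothened, the transducer of the Hedgehog signal. Tissue cRNA was made from 100 ng of RNA and PDKC1 cRNA from 2 ug. The labels give neither strain nor genotype of the mice, nor the age of those with tumours, nor the dose or vehicle of cyclopamine, and PDKC1 is a single line with 1 array per time. Nothing says that replicates are separate mice, and each p-value therefore covers only the spread of the arrays at hand, which may be technical. All epidermis was newborn, so carcinoma and age cannot be told apart.

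An inhibitory serpin offers an exposed reactive loop to its target protease; once the loop is cleaved the serpin changes shape and holds the protease in a covalent complex. Some members have lost inhibition and carry hormones or help proteins fold. Clade B serpins lack a classical signal peptide and act mostly inside cells, many of them in stratified epithelia and leukocytes, while most other clades are secreted. In epidermis, serpins and other inhibitors restrain the kallikreins and cathepsins that process the cornified layer.

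Markers were set against the labels first. The Hedgehog target Gli1 averaged 2063 on the tumour arrays against 242 for epidermis, and in PDKC1 it went from 842 at 0 h to 193 at 6 h and 190 at 10 h. In PDKC1 at 0 h, 8 basal keratinocyte genes ran from 758 for Lamb3 to 33585 for the basal keratin Krt14. Another basal keratin, Krt15, was at 957 there, against 13433.7 to 30782.5 in tissue. Krt14 averaged 11631.5 on the tumour arrays against 28030 for epidermis. The tumour arrays had a weaker 5' signal, as the Actb control ratio of 3' to 5' intensity shows: it was 11.3 for the first tumour and 93.1 for the second, while epidermis gave 2.84 to 3.98 and PDKC1 1.15 to 1.21. The median probe set lay at 118.2 and 127.9 for the tumours, 71.0 and 75.3 for epidermis and 72.1 to 78.1 for PDKC1. These values describe the arrays on which every result below rests, and their part in the results was not tested. Because tissue was dissected, fewer cells of a type and less RNA per cell cannot be told apart in any tissue value.

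More serpins were lower than higher in the tumours. The lower ones were 8 clade B genes and the clade A genes Serpina12 and Serpina1f, with Serpina12, Serpinb12 and Serpinb7 furthest down. The higher ones were Serpina7, Serpinb1a, Serpinb9, Serpinf1, Serping1 and Serpinh1. Of 40 genes 16 were called, where 29.0% of all genes were: 10 were lower and 6 higher in tumour than in epidermis by limma at an adjusted p under 0.05, with Benjamini-Hochberg adjustment over all 18193 genes. Over all genes 12.5% were lower and 16.6% were higher. That split of all calls, 3015 higher and 2267 lower, was 2163 and 2697 with quantile normalization and 1463 and 4713 with each array centred, while the serpins were 5 higher and 10 lower, and 5 higher and 13 lower. The share of lower members, which was not tested against that background, was thus the larger and the share of higher members about the same. The median log2 difference (tumour minus epidermis, on log2(intensity + 16)) was -0.39 over the serpins and 0.09 over all genes. All 10 lower genes were below the epidermis in both tumours and all 6 higher genes were above it. The calls came from the same arrays, so this separation adds no support to them. The share of all genes separated in this way was not counted. Some uncalled serpins, such as Serpina10 and Serpina5, were also below the epidermis in both tumours, though Serpina5 was under the median probe set on every array. By clade, A had 2 lower and 1 higher, B had 8 lower and 2 higher, F, G and H had 1 higher each, and C, D and I had none called by limma, nor any gene at an unadjusted p under 0.05. Of the 40 genes, 11 were under the median probe set on every array and are given only as ranges where they were not called. Without epidermis array 1, and likewise without array 2, 6 serpins were lower by the same test.

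**Figure D1:**
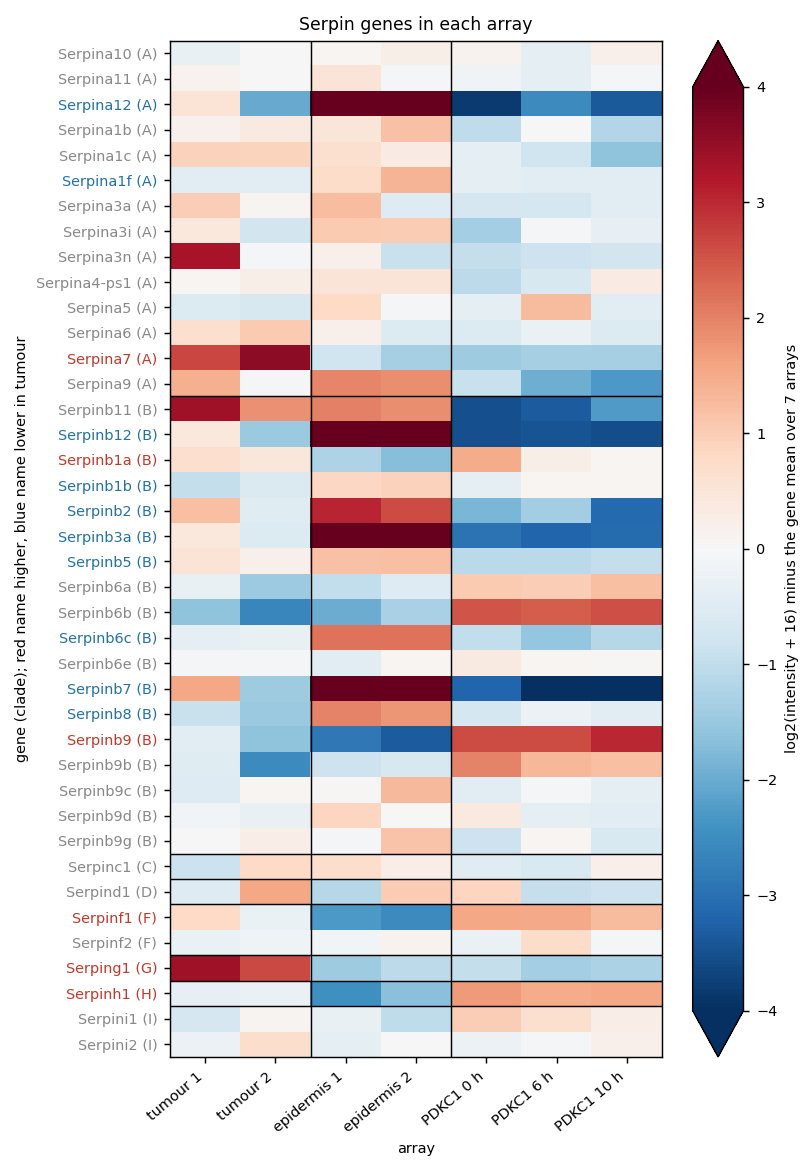
Each row is a serpin gene (clade in brackets) and each column an array; colour is log2(intensity + 16) minus the gene's mean over the 7 arrays, and names in red or blue were called higher or lower in tumour. Serpina12, Serpinb12, Serpinb3a and Serpinb7 are darkest in the 2 epidermis columns, and Serpinb6b, Serpinb9 and Serpinb9b are highest in the 3 PDKC1 columns.

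Most of the lower genes lie in 1 cluster. The RefSeq promoter table (GRCm38.p6; the array files name no build) held a window of 300 bases, from 250 before to 50 after the start, for 34 of the 40 genes. It placed 7 measured clade B genes on chromosome 1, of which 6 were lower, 0 were higher and 1, Serpinb11, was not called, with a median log2 difference of -3.08. Of 10 clade B genes on chromosome 13, 2 were lower and 1 was higher, and their median was -0.55. Serpinb1a, a clade B gene called higher, and Serping1 are among the 6 genes without a window, so they are in none of these counts or the motif counts. Neighbouring genes of a cluster arose by duplication and some probe sets may bind several of them, so these members are not independent.

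The promoters of the chromosome 1 genes are printed because 6 of these 7 genes were lower together. Each line gives the window 5' to 3' in lower case, and capitals mark the letters TGANTCA, a form of the binding site of AP-1, a transcription factor active in epidermis. Both strands were searched. Serpinb12 and Serpinb2 had 2 windows each, and the window with more matches is shown, or the first where they tie.
Serpinb5, chr1:106860925-106861224, + strand: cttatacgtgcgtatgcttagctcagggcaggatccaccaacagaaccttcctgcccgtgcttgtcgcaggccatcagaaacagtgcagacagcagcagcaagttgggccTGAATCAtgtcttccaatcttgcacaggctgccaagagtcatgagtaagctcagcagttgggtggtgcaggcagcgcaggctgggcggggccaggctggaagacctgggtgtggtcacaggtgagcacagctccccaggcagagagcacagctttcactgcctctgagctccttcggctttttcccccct
Serpinb12, chr1:106934199-106934498, + strand: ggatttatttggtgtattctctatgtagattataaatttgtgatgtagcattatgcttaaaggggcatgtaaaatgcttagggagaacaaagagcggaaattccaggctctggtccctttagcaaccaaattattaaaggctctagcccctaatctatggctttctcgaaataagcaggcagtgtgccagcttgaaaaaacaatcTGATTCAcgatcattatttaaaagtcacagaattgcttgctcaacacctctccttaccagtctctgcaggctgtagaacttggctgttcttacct
Serpinb7, chr1:107422439-107422738, + strand: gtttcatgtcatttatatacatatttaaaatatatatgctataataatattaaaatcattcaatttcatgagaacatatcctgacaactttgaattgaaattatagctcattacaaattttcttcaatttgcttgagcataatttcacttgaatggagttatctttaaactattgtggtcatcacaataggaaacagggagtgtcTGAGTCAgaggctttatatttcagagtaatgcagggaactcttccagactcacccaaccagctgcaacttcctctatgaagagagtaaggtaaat
Serpinb2, chr1:107511173-107511472, + strand: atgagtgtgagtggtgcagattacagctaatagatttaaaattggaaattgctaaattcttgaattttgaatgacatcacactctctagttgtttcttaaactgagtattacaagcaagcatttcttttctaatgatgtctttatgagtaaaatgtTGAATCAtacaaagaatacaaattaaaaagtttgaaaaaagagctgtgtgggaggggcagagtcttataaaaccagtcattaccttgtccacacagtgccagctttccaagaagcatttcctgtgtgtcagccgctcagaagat
Serpinb8, chr1:107589756-107590055, + strand: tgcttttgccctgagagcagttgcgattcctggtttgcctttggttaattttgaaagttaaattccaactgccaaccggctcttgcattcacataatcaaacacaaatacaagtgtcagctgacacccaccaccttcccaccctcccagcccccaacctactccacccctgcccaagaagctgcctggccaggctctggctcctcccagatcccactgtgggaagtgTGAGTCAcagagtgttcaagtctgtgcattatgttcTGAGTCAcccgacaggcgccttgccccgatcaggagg
Serpinb11, chr1:107362064-107362363, + strand: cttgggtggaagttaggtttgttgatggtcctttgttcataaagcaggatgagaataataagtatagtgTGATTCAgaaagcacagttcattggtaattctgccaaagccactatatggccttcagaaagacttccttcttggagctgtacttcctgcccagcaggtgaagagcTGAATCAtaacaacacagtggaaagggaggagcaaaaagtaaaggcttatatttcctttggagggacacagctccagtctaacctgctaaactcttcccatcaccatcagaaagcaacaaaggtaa
Serpinb3a, chr1:107052254-107052553, - strand: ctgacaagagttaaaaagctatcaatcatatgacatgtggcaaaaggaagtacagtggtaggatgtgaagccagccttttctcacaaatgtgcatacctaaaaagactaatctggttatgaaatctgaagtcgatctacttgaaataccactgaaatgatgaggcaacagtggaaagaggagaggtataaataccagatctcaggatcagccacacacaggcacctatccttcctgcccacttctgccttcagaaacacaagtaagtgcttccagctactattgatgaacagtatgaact

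TGANTCA was present in 6 of these 7 genes, Serpinb11 among them, and absent from the window of Serpinb3a. It was present in 0 of the 10 clade B genes of chromosome 13, in 2 of 9 clade A genes of chromosome 12 and in 7.81% of all 32851 windows. With G or C in the middle of the site, TGAGTCA or its reverse complement, which TGANTCA includes, 2 of the 7 matched, Serpinb7 and Serpinb8, against 5.20% of all windows. In Serpinb12 and in Serpinb7 the match began 45 bases before the start. The match is a description of the letters, and binding was not measured. Over all serpins with a window, TGANTCA was in 5 of 10 lower, 0 of 4 higher and 3 of 20 uncalled genes. A gene was counted if any of its windows matched, and 6 serpin genes had 2 windows. The shares of all windows are of single windows, so the 2 measures are unlike. Another 6 motifs were searched on both strands. The letters of the TATA box, TATAAA, were in 5 of 10 lower genes and 13.6% of all windows. They were counted at any position, from 239 bases before the start in Serpinb7 to position 4 after it in Serpinb6c. The CCAAT box was in 4 of 10 and 37.4%, and the GC box, GGGCGG, in 3 of 10 and 35.7%. The heat shock element GAANNTTC was in 2 of 10 and 7.86%, and so was the STAT site TTCNNNGAA, with 8.30% of all windows. The GLI site GACCACCCA was in 0 of the 34 serpins and 0.253% of windows. The motif to print was chosen after its matches were seen.

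The steepest falls of the cluster were in Serpinb12, Serpinb7 and Serpinb3a. Serpinb12, an intracellular trypsin inhibitor of epithelia, had intensities of 442 and 106 in tumours 1 and 2 and of 20230 and 16996 in the epidermis arrays. Both tumours were far under both epidermis arrays, and the log2 difference was -6.29 ± 0.56 (SE, 2 arrays per group; adjusted p = 0.000873 by limma). A further Serpinb12 probe set gave -4.73 ± 0.43 in a fit of all probe sets, the source of every second probe set's value below. PDKC1 cells, at 13.2 to 14.9, lay under their median probe set at all times.

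Serpinb7, a gene whose loss in people causes a palmoplantar keratosis, had intensities of 1118 and 129.8 in tumours, against 24296 and 20116 in epidermis. The groups did not overlap although tumour 2 was much lower than tumour 1, and the difference was -5.77 ± 0.83 (adjusted p = 0.00361 by limma). In PDKC1 it was at 26.7, 5.3 and 2 at 0 h, 6 h and 10 h, all dim. Without tumour 2 its difference was -4.29 and without tumour 1 it was -7.25, and for Serpinb12 these were -5.34 and -7.24. Serpinb3a, a relative of the human squamous cell carcinoma antigens, had 242 and 117 in the tumours against 5253 and 4366 in the epidermis, a difference of -4.70 ± 0.34 (adjusted p = 0.000573 by limma). Transcripts of its near-identical neighbours may bind its single probe set, whose x suffix is Affymetrix's mark for possible cross-binding, so this value cannot be assigned to Serpinb3a alone. PDKC1 cells had 5.5 to 9.1.

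Serpinb8 and Serpinb2 fell less and stayed measurable in the cell line. Serpinb8, an inhibitor of furin-like proteases that is linked to a peeling skin disorder, had 721 and 468 in tumours, against 5437 and 4643 in epidermis, with no overlap (-3.08 ± 0.26, adjusted p = 0.000793 by limma). A further probe set gave -1.70 ± 0.37. Its PDKC1 levels were 828, 1136 and 1002 at 0 h, 6 h and 10 h, all above both tumours. Serpinb2, also known as plasminogen activator inhibitor type 2, had 2748 and 844 in tumours, against 10054 and 7291 in epidermis. Tumour 2 was the lower by far, yet both were below the epidermis, by -2.48 ± 0.51 (adjusted p = 0.0129 by limma). Its value without tumour 2 was -1.63, and it was not called without epidermis array 1 (0.0991) or array 2 (0.0609).

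Serpinb5, or maspin, a member without known inhibitory action that basal and suprabasal keratinocytes express, was bright everywhere and its probe sets disagreed in size. The one used for the gene, with the highest mean and also an x suffix, had 13340 and 10528 in the tumours, 20382 and 20787 in the epidermis and 4310 to 4668 in PDKC1. Its groups did not overlap, and the difference was -0.80 ± 0.23 (adjusted p = 0.0437 by limma). The other 3 probe sets gave -0.56 ± 0.25, -2.08 ± 0.39 and -3.08 ± 0.41, so all 4 were lower in the tumours but over a range of -3.08 to -0.56. The call on that probe set was lost when every probe set was tested (adjusted p = 0.0561), with a replicate block (0.0676), with quantile normalization (-0.22, adjusted p = 0.518), without a variance trend (0.109), and without either epidermis array (0.273 and 0.281). Centring every array gave -1.44, and with the mean of the probe sets -1.63.

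Serpinb11 was the exception in the cluster. Its intensities were 3509 and 1188 in tumours, against 1343 and 1210 in epidermis, so tumour 1 stood above and tumour 2 lay just below both epidermis arrays. The difference was 0.67 with a 95% interval from -0.44 to 1.79 (adjusted p = 0.339 by limma). Without tumour 2 it was 1.45 (adjusted p = 0.000664). In PDKC1 it was dim, at 13.7 to 53.4.

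**Figure D2:**
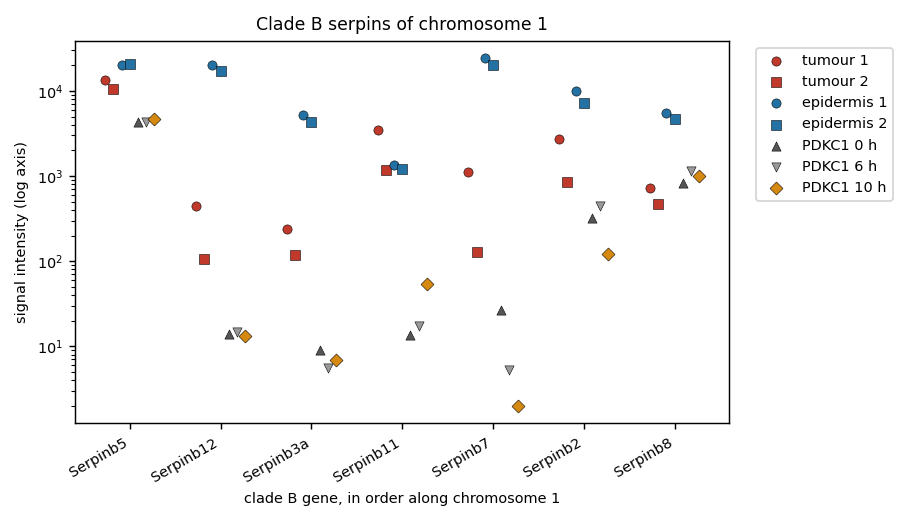
Signal intensity (log axis) of the 7 measured clade B genes of chromosome 1 in each array, in their order along the chromosome; each symbol is 1 array. Each gene is shown by the probe set used for it. For all but Serpinb11 both epidermis arrays (blue) are above both tumours (red). The PDKC1 arrays are below both tumours for all but Serpinb8, though for Serpinb5 not on every probe set.

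Serpina12 was the clade A gene that shared this pattern. It encodes vaspin, a secreted inhibitor of kallikrein 7, and had intensities of 580 and 86.1 in tumours, against 20378 and 19388 in epidermis. The groups were far apart, with a log2 difference of -6.33 ± 0.72 (adjusted p = 0.00163 by limma). With the mean of its probe sets the difference was -4.12, since the other probe set gave -1.91 ± 0.59, which was not called when every probe set was tested (adjusted p = 0.0522). Without tumour 2 the difference was -5.06 and without tumour 1 it was -7.61. PDKC1 cells had 12.7, 53.5 and 23.6, under the median probe set at each time.

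Markers of the upper epidermis were mostly lower in the tumours too. Of 8 spinous layer genes 6 were lower, Krt10 was not called and 1, Krt2, was higher. Krt2 had 18385 and 233.7 in tumours 1 and 2, against 25.8 and 18.9 in epidermis. All 15 measured genes of a list of granular and cornified layer genes were lower in the tumours, with a median of -3.86. Their summed intensity was 35114 and 16261 in the tumours, 262134 and 245894 in the epidermis and 782 to 1105 in PDKC1. Tumour 2 was the lower in that sum and also in 7 of the 10 lower serpins, whose median change from tumour 1 to tumour 2 was -0.78 on the log2 scale, against -1.05 for the layer genes. Tumour 2 was also the lower in 4 of the 6 higher serpins (median -0.50), and the median was -1.18 over spinous layer genes, -0.89 over basal keratinocyte genes and -0.72 over macrophage genes. The part of layer content in the serpin differences was not tested.

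The remaining lower genes were dimmer. Serpinb6c had 85.7 and 93.0 in tumours, against 585 and 581 in epidermis, with tight replicates and no overlap (-2.51 ± 0.32, adjusted p = 0.00242 by limma). Its probe set carries the s mark for binding several transcripts, and Serpinb6 genes are near copies, so the value is uncertain as to gene. Serpinb1b had 24.3 and 36.7 against 123 and 132 (-1.64 ± 0.44, adjusted p = 0.0326 by limma). It was not called without tumour 1 (0.0670) or without either epidermis array (0.145 and 0.161), and was -1.02 with a pseudocount of 64. Serpina1f, at 1.5 and 1.8 against 22.9 and 43.9, was under the median probe set on every array, so its difference of -1.45 ± 0.44 (adjusted p = 0.0494 by limma) was set largely by the pseudocount: it was -2.67 with 4 and -0.56 with 64. Without any 1 of the 4 tissue arrays Serpina1f was not called (adjusted p from 0.0909 to 0.211).

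The 2 clade B genes called higher in the tumours were Serpinb1a and Serpinb9, inhibitors known from leukocytes. The other 8 called clade B genes were lower. Serpinb1a inhibits neutrophil elastase and related proteases. Its intensities were 1285 and 1103 in tumours, against 330 and 236 in epidermis, without overlap (2.03 ± 0.28, adjusted p = 0.00295 by limma), and a further probe set gave 2.82 ± 0.40. Serpinb9, an inhibitor of granzyme B, had 229 and 94.9 in tumours, against 30.3 and 18.0 in epidermis (2.05 ± 0.54, adjusted p = 0.0306 by limma). Only tumour 1 exceeded the median probe set of its array. The other Serpinb9 probe set gave -0.08 ± 0.52, and with the mean of both the gene was not called (0.99, adjusted p = 0.176). It was also not called with quantile normalization (0.0898), with centring (0.0933), or without tumour 1 (0.0867), epidermis array 1 (0.107) or array 2 (0.164), and was 1.29 with a pseudocount of 64.

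Markers of leukocytes are given beside these genes. Of 9 T and NK cell markers 1 was higher, and their sum was 557 and 972 in the tumours against 424.2 and 391.9 in the epidermis and 281 to 466 in PDKC1. Of 8 macrophage markers 2 were higher and 1 lower, with sums of 11580 and 11991 for tumours, 9404 and 8024 for epidermis and 644 to 725 for PDKC1. Of 12 leukocyte serine proteases, 5 were higher and 0 lower by limma, or 6 and 1 at an unadjusted p under 0.05. They were Prtn3, the neutrophil proteinase, Mcpt4 (2.46 ± 0.61) and Cma1 (1.91 ± 0.29) of mast cells, and Ctsg and Gzmc. Of 8 mast cell markers 5 were higher, Mcpt4 and Cma1 among them. The part of leukocytes in the serpin values was not tested. PDKC1 cells, a cell line, held Serpinb1a at 2265 and Serpinb9 at 2070 at 0 h, above all 4 tissue arrays. The other Serpinb1a probe set was at 277 there, below the tumours at 409 and 432 and above both epidermis arrays.

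Serpinb6a and Serpinb6b, relatives of the human inhibitor PI-6, were not called. Serpinb6a had 4820 and 2174 in tumours, against 2979 and 4148 in epidermis, overlapping groups (-0.12, 95% interval -1.04 to 0.80), though without tumour 1 it was called lower (-0.69, adjusted p = 0.0386 by limma). Serpinb6b had 92.3 and 37.9 against 67.5 and 118 (-0.47, interval -1.74 to 0.81). Both were highest in PDKC1, where Serpinb6a was at 11692 to 13764 and Serpinb6b at 1760 to 1974. The other uncalled clade B genes, Serpinb6e, Serpinb9b, Serpinb9c, Serpinb9d and Serpinb9g, had differences from -0.89 to 0.15. Of these Serpinb9b was called lower without tumour 1 (-1.80, adjusted p = 0.0407 by limma). The Serpinb6 and Serpinb9 genes are close copies, and their values may be shared between them.

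Of the 4 genes of clades F, G and H, 3 were higher in the tumours and Serpinf2 was not called. Serping1, the C1 inhibitor that restrains complement and contact proteases, had 1603 and 930 in tumours, against 40.5 and 58.4 in epidermis. Neither tumour came near the epidermis range, and the log2 difference was 4.25 ± 0.39 (adjusted p = 0.000927 by limma). PDKC1 cells had 63.4, 43.9 and 48.0 at 0 h, 6 h and 10 h, under their median probe set. Of 15 coagulation and complement genes 5 were higher and 2 lower. The higher ones included C1ra (2.63 ± 0.58) and C1s1 (1.91 ± 0.39), which encode the proteases that Serping1 blocks, and Procr (2.64 ± 0.51); tissue factor, F3, was lower (-4.15 ± 0.64).

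Serpinf1, or pigment epithelium-derived factor, a secreted non-inhibitory member that limits vessel growth, had 1576 and 741 in tumours, against 171 and 140 in epidermis. The groups did not overlap (2.68 ± 0.40, adjusted p = 0.00402 by limma). With the mean of its probe sets it was 1.62, the other probe set being dim, at 14.5 to 37.4 in tissue. In PDKC1 the probe set used for the gene was at 2636, 2615 and 2204, above every tissue array, and the other was at 15.7 to 20.2. Serpinf2, the plasmin inhibitor, was under the median probe set on all 7 arrays.

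Serpinh1, called HSP47, is a collagen chaperone of the endoplasmic reticulum rather than a protease inhibitor. The probe set used, with an x suffix, had 2124 and 2191 in tumours, against 469 and 818 in epidermis, without overlap (1.77 ± 0.30, adjusted p = 0.00609 by limma). The other probe set had 854 and 665 against 413 and 622 and was not called (0.56 ± 0.30, adjusted p = 0.220 when every probe set was tested). Without epidermis array 1 the first was not called (1.38, adjusted p = 0.0789), and centring every array gave 1.13. PDKC1 cells had 7498 to 8613, above every tissue array.

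Collagen genes and fibroblast markers were also higher in the tumours. Of 18 genes of collagen chains and their folding 8 were higher and 1, P4hb, was lower. The higher ones were all the collagen chain genes of the list and, of the folding genes, Fkbp14 alone. Col1a1 (4.19 ± 0.37) and Col1a2 (3.15 ± 0.36) were the furthest apart. Col1a1, Col1a2, Col3a1 and Col5a1 are also in the fibroblast and matrix list. Of 13 fibroblast and matrix markers 12 were higher, and their sum was 102713 and 127544 in the tumours, 23059 and 21606 in the epidermis and 6803 to 8159 in PDKC1. In PDKC1 at 0 h the members of that list ran from 6.90 for Pdgfra to 3277 for Col6a1, with Col5a1 at 2454, Col6a2 at 1716, Col1a1 at 46.9 and Col3a1 at 33.7. From tumour 1 to tumour 2 the median of the list was 0.28 higher on the log2 scale, and the same difference was -1.07 for Serpinf1, -0.78 for Serping1 and 0.04 for Serpinh1. Of 8 endothelial markers 3 were also higher. All 3 measured adipocyte markers were higher, with sums of 6245 and 4517.5 in the tumours against 700 and 745.7 in the epidermis. Of 8 skeletal muscle markers 3 were higher, with sums of 15583 and 3028 in tumours 1 and 2 against 598 and 529.5. The part of connective tissue, fat and muscle in the tumour values was not tested.

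Clade A holds the large plasma serpins, of which 1 was higher in the tumours. Serpina7, the thyroxine-binding globulin, had 275 and 525 in tumours, against 9.9 and 1.8 in epidermis, far apart (4.21 ± 0.51, adjusted p = 0.00201 by limma). The epidermis lay under the pseudocount of 16, so the size depends on it, and with 64 it was 2.68. PDKC1 cells had 0.7 to 1.8. Of 6 hepatocyte markers 0 were called by limma and 0 had an unadjusted p under 0.05 (median -0.01), and their sum was 151.7 and 315 in tumours, against 157 and 261 in epidermis.

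Serpina3n, an acute phase inhibitor related to antichymotrypsin, reached 344 on the first tumour array but 19.5 on the second, and the epidermis arrays had 26.2 and 4. Only tumour 1 stood out, and the gene was not called (1.96, 95% interval -0.54 to 4.46, adjusted p = 0.217 by limma), though without tumour 2 it was (3.63, adjusted p = 0.00532), and with a replicate block (0.0484). Serpina9 had 226 and 71.1 against 336 and 313 (-1.23, interval -2.47 to 0.02). It was called lower with quantile normalization (-1.93, adjusted p = 0.0495), with centring (-1.87, 0.0370) and without tumour 1 (-1.97, 0.00555). Serpina10, which inhibits coagulation factor X with protein Z, had 55.6 and 73.3 against 78.0 and 87.4 (-0.30, interval -1.33 to 0.73). Serpina3i had 61.5 and 19.4 against 105.5 and 101.1 (-1.19, interval -2.44 to 0.07), and without tumour 1 it was called lower (-1.75, adjusted p = 0.0418 by limma). The pseudogene Serpina4-ps1 had 49.2 and 55.6 against 71.2 and 71.9 (-0.36). The other 6 uncalled clade A genes, among them the antitrypsin genes Serpina1b and Serpina1c and the steroid carrier gene Serpina6, had differences from -0.97, in Serpina5, to 1.02. With centring Serpina5, which was under the median probe set on every array, and Serpina3i were called lower (adjusted p = 0.0385 and 0.0389 by limma).

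Single genes of other clades gave no call. Serpinc1, antithrombin, had 21.9 and 101.5 in tumours, against 94.6 and 65.8 in epidermis (95% interval of the difference -2.01 to 0.98). Serpind1, heparin cofactor II, had 20.3 and 133.6 against 7.40 and 87.9 (interval -1.60 to 2.76). Serpini1, the neuronal inhibitor of tissue plasminogen activator, had 58.0 and 111.3 against 81.0 and 42.1 (interval -0.86 to 1.60). All 3 had overlapping groups (adjusted p = 0.603, 0.694 and 0.650 by limma). Serpini2 was under the median probe set on every array.

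**Figure D3:**
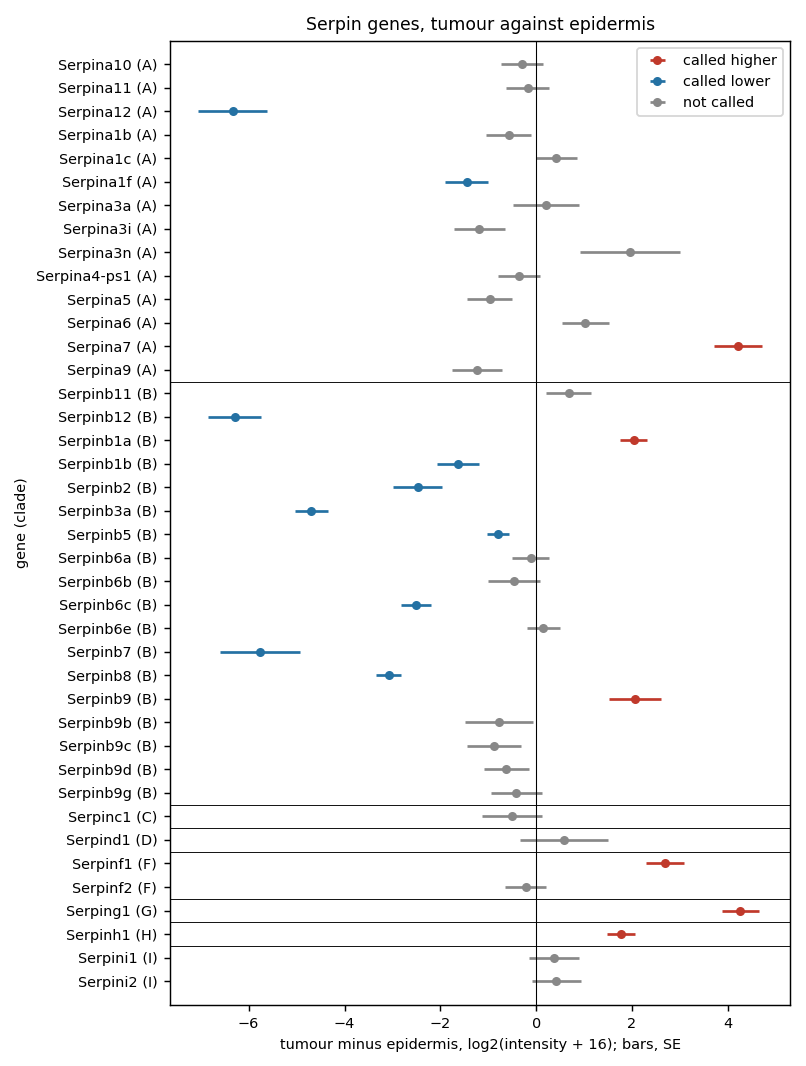
Difference of tumour from epidermis on the log2(intensity + 16) scale for each of the 40 serpin genes by clade, with SE bars (2 arrays per group); red and blue were called higher and lower. Blue points reach -6.33 in clade A and -6.29 in clade B, and the clade F, G and H points called are all to the right of 0.

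Where a gene had several probe sets, their differences had the same sign for most genes. Such genes numbered 12. When all 34945 probe sets were tested, 13 serpin probe sets were lower and 7 higher by limma, where 10.7% and 16.6% of all probe sets were. The probe sets of Serpinb9, Serpina4-ps1 and Serpini1 differed in sign, none of them called in opposite directions. An array annotation alone does not say which transcript each reads.

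**Figure D4:**
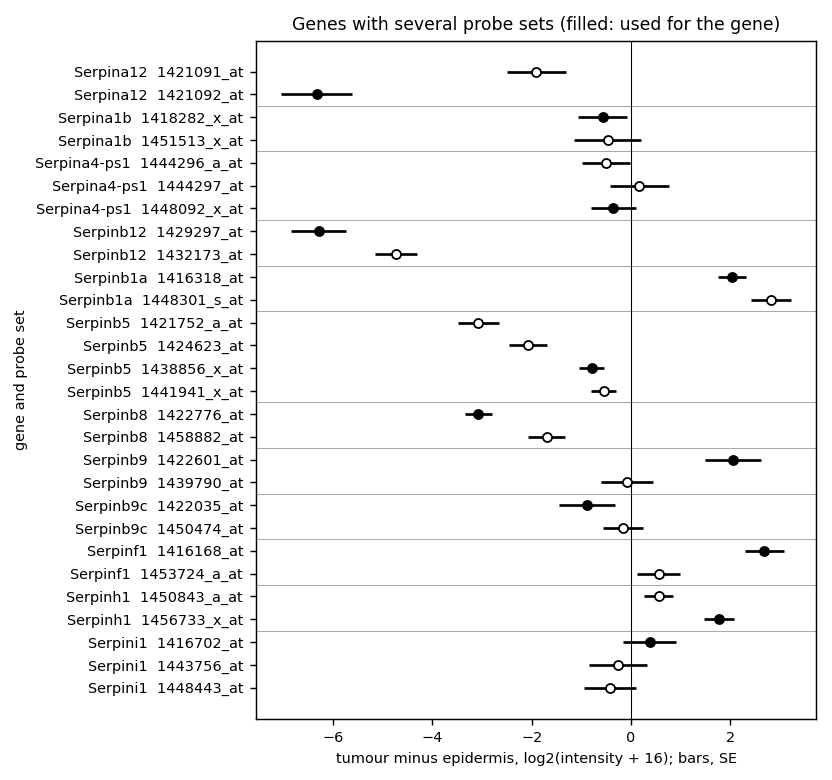
Difference of tumour from epidermis for each probe set of the 12 serpin genes that had several, with SE bars; filled points are the probe sets used for the gene. The 4 Serpinb5 probe sets run from -3.08 to -0.56, and the 2 of Serpinh1 from 0.56 to 1.77.

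The proteases that serpins restrain and the other inhibitors of skin were described with the same fit. Of 12 serine proteases of skin 9 were lower and 0 higher by limma (10 and 1 at an unadjusted p under 0.05), with a median of -2.08. They included Klk8 (-5.39 ± 0.34), Klk5 (-5.19 ± 0.34), Klk7 (-3.86 ± 0.28), the target of vaspin, and Prss8 (-3.43 ± 0.37). Of 18 protease inhibitors of epithelium other than serpins 8 were lower and 0 higher by limma (9 and 0 at an unadjusted p under 0.05; median -0.99), with Stfa2l1 (-5.78 ± 0.44), Stfa3 (-4.89 ± 0.23), Csta1 (-4.82 ± 0.54) and Wfdc5 (-4.78 ± 0.77) furthest apart. Klk5, Klk7 and Casp14 are also in the granular and cornified layer list.

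Cathepsins and caspases were mixed. Of 11, 5 were lower, among them Casp14 (-4.94 ± 0.21) and Ctsh (-2.57 ± 0.28), and 1 was higher, Ctsk, the collagen-degrading cathepsin K (4.05 ± 0.24). Of 10 plasminogen activation genes 2 were higher, Vldlr (1.25 ± 0.20) and the activator Plat (1.14 ± 0.32), and 2 lower, Anxa2 (-1.74 ± 0.39) and Plau (-1.73 ± 0.49). Of 10 TGF-beta and p53 response genes 4 were higher and 1 lower; Ccn2 (3.64 ± 0.20) and Cdkn1a (-2.39 ± 0.32) were furthest apart. All these counts stand beside 16.6% higher and 12.5% lower over all genes.

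Levels in the cell line were set beside the tissues. At 0 h, 9 of the 40 genes were above all 4 tissue arrays, and 25.0% of all genes were. These were Serpinb1a, Serpinb6a, Serpinb6b, Serpinb6e, Serpinb9, Serpinb9b, Serpinf1, Serpinh1 and Serpini1. For Serpinb1a, Serpinf1 and Serpini1 this held only on the probe set used for the gene. Other probe sets gave 277 for Serpinb1a, against 409 and 432 in the tumours, and 20.2 for Serpinf1, against 22.3 and 37.4. Those of Serpini1 gave 1.3, below all 4 tissue arrays, and 68.2, within their range. Another 18 genes were below all 4 tissue arrays, against 32.2% of all genes. Only 2 of these genes, Serpinb2 and Serpinb5, were over the median probe set in PDKC1. For Serpinb5 this position depended on the probe set. At 0 h 1 other probe set gave 6405, against 5794 and 2373 in the tumours. Another gave 3409 against 3685 and 1592, and the last gave 1890 against 7092 and 5621. Serpinb9b was at 442 in PDKC1 and at 4.2 to 67.7 in tissue. The cell line and the tissues also differ in RNA input, and with 1 array per time no test was made.

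With cyclopamine 1 serpin crossed the 2-fold mark at both times, on 1 of its 2 probe sets. No untreated array was taken at 6 h or 10 h, so cyclopamine and time in culture cannot be told apart. Of the 13 serpin genes over the median probe set on at least 1 PDKC1 array, 1 was at least 2-fold lower at 6 h and at 10 h and 0 were at least 2-fold higher. Over all 11581 genes past that filter 1.01% were lower and 0.924% higher. The gene was Serpinb1a, which went from 2265 at 0 h to 934 at 6 h and 841 at 10 h, log2 differences of -1.26 and -1.41. Its other probe set went from 277 to 146.8 and 150.0, differences of -0.85 and -0.82, short of 2-fold at both times.

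The other 12 serpins past the filter stayed within 2-fold at 1 or both times. Serpinb9b went from 442 to 277 and 252 (-0.65 and -0.77), and it was past 1.5-fold at both, as was Serpinb1a. Of all genes 2.82% were that much lower and 2.56% that much higher. Serpinb8 went from 828 to 1136 and 1002 (0.45 and 0.27). Its other probe set went up from 604 to 965.5 and 1119 (0.66 and 0.87), past 1.5-fold at both times. Serpinb2 went from 324 to 442 and then 123, up at 6 h and down at 10 h (0.43 and -1.29). Serpini1 went from 216 to 168 and 126 (-0.33 and -0.70). Serpinb9 was at 2070, 2056 and 2725 (-0.01 and 0.39). The bright genes Serpinb5, Serpinb6a, Serpinb6b, Serpinf1 and Serpinh1 differed from 0 h by -0.26 to 0.17 on the probe sets used for them. The other Serpinb5 probe sets differed by 0.06 to 0.38. With 1 array per time these differences have no replicate check.

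**Figure D5:**
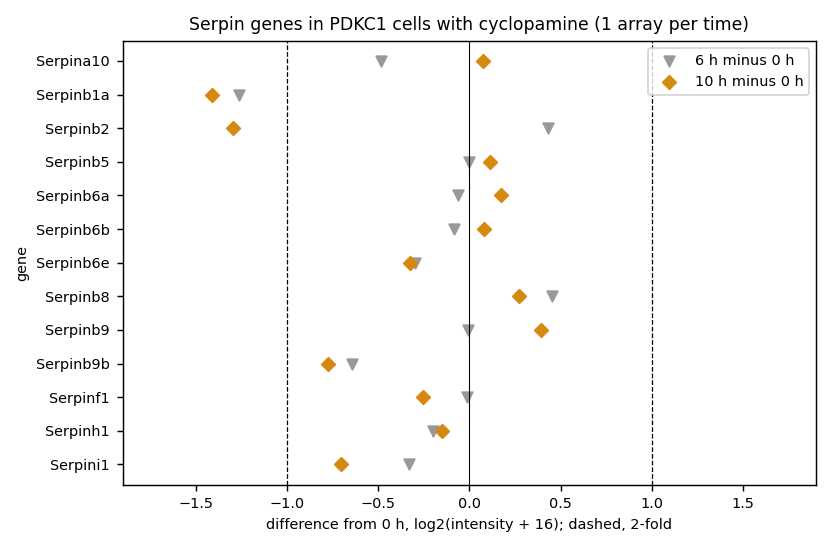
Difference from 0 h at 6 h (triangles) and 10 h (diamonds) on the log2(intensity + 16) scale for the 13 serpin genes past the level filter in PDKC1; dashed lines mark 2-fold. Serpinb1a is beyond the lower line at both times, Serpinb2 at 10 h alone.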

How the data were processed

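RNA was measured on 7 single-channel Affymetrix arrays. The authors deposited a linear signal intensity per probe set; the method of summarising probes is not given in the sources used here. On each array the mean without the lowest and highest 2 percent of values lay at 500.0, and no further normalization was applied. No 2 arrays were identical, and their number limits the precision. Of 45101 probe sets, 64 controls, 932 of several genes (3 of them serpins) and 9160 without a gene name in the platform annotation were left out. The remaining 34945 stood for 18193 genes, each by its probe set with the highest mean log2(intensity + 16). Tumour and epidermis (2 arrays each) entered a two-sided limma test (version 3.58.1, R 4.3.3) with eBayes, a trended prior variance and no block, adjusted by Benjamini-Hochberg across the 18193 genes. PDKC1 had no test. The fit was tested on simulated data.

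Of 223 list entries 213 were measured. Genes named with values were those called, up to 3 of the brightest uncalled genes of a clade whose highest array passed its median probe set, well-known members (1 is not reported here) and up to 4 called members of each related list. Members of counts of 5 or fewer were named beyond that rule after their values were seen. The members and lists were chosen with earlier results of these data known. Promoter windows came from RefSeq, build GRCm38.p6. Alternatives were quantile normalization, centring on the median, pseudocounts of 4 and 64, a filter at the 40th level percentile, probe sets averaged or all tested, an untrended prior, the replicate number as a block, each tissue array left out, all 7 arrays in 1 fit, and, in PDKC1, 1.5-fold and no filter.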

Additional observations from a re-analysis of the deposited data

How the results depend on the processing

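The counts of higher and lower serpins stayed within 1.5 times under every alternative except leaving out an epidermis array. With each tissue array left out in turn, 6 to 12 serpins were lower and 4 to 8 higher; the lone array left in a group is then assumed to vary like the other group. With the replicate number as a block, 8 were lower and 7 higher; the numbers did not pair the arrays (correlation of the replicate differences over genes -0.0006). In PDKC1, 2 serpins were lower at 1.5-fold, and with no filter on level 4 were lower and 1 higher. Of the 220 comparisons of a called serpin with an alternative, 196 kept direction and call and 24 lost the call; no called gene changed sign, and 11 comparisons added a call to an uncalled gene. The calls on Serpina12, Serpina7, Serpinb12, Serpinb1a, Serpinb3a, Serpinb6c, Serpinb7, Serpinb8, Serpinf1 and Serping1 held under all alternatives run for them. Scaling moved the median of all genes from 0.09 to -0.19 with quantile normalization and to -0.55 with centring (over serpins from -0.39 to -0.73 and -1.03), and the split of all calls from 3015 higher and 2267 lower to 2163 and 2697, and to 1463 and 4713; the serpins called were 5 higher with each, and 10 and 13 lower. Without epidermis array 1, 840 genes were higher and 537 lower, and 965 and 619 without array 2. The cause of these changes was not tested. Dim genes carry little signal over background, so their differences depend on the pseudocount.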
